A study of Mus musculus with 12 samples.

Results

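The data describe 10 genes of the nuclear receptor superfamily in mouse heart muscle cells: the estrogen receptors Esr1 and Esr2, the estrogen-related receptors Esrra, Esrrb and Esrrg, the peroxisome proliferator-activated receptors Ppara, Ppard and Pparg, and the retinoid X receptors Rxra and Rxrg. They were taken by gene symbol from an Affymetrix array table that holds 24704 named genes, and each of the 10 has 1 probe set. Esr1 was chosen because its values differed between the groups, so its values are given without a test, whereas the other 9 were listed by family. The study asked whether H3S28p, a phosphorylation of histone H3, when set off by the β-adrenergic agonist isoprenaline (Iso), goes with altered gene expression. Ventricular myocytes of adult mice (AMVMs), freed by enzyme in a Langendorff system, were kept for 24 h with 100 nM Iso or without it. The mice either lacked CaMKIIδ and CaMKIIγ, 2 forms of the calcium- and calmodulin-dependent protein kinase II (double knockout, DKO), or were the corresponding wild type (WT). The sources used here do not say how, or in which cells, the kinase genes were inactivated, and they name no strain. Each of the 4 groups (WT untreated, WT with Iso, DKO untreated, DKO with Iso) has 3 arrays. Each of 6 mice, 3 per genotype, gave 1 untreated and 1 Iso array, so that arrays of the same number within a genotype come from the same animal. The labels do not give the sex of the mice. Xist, transcribed from the inactive X chromosome of female cells, read between 2.96 and 3.08 and below the array median on all 12 arrays. The Y-linked genes Uty and Eif2s3y read above it on all 12, at 4.46 to 5.62 and 4.03 to 5.35.

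Nuclear receptors are transcription factors that bind DNA directly, and the activity of many of them is set by a small lipophilic ligand in their ligand pocket. Estrogen receptor α (Esr1) and β (Esr2) bind estradiol and act as dimers on inverted repeats of a short half-site. The estrogen-related receptors have no known natural estrogen ligand, bind an extended half-site and, with the coactivators PGC-1α and PGC-1β, maintain mitochondrial oxidative genes in heart muscle. The PPARs bind fatty acids and drive fatty acid uptake and oxidation, with Ppara and Ppard being the main forms in cardiac muscle and Pparg the form typical of fat. The RXRs bind a form of retinoic acid and are the obligate partners of the PPARs, the retinoic acid receptors, the thyroid hormone receptors and the liver X receptors. β-adrenergic stimulation raises cAMP and calcium in myocytes, and CaMKII is one of the kinases that carry the calcium signal to the nucleus.

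The 250 bases before the annotated starts of 3 of these genes are shown because Esr1 and Rxrg had the largest Iso differences of the 10, and Esrrg holds the rarest of the motifs found. The sequences are RefSeq promoter windows on build GRCm38.p6, 5′ to 3′ on the gene's strand, with matches to the motifs listed afterwards in capitals. All 10 genes matched the RefSeq table, with 19 windows in all. The windows shown lie on the plus strand, at chr10:4611739-4611988 and chr10:4709908-4710157 for Esr1, chr1:167598112-167598361 and chr1:167618015-167618264 for Rxrg, and chr1:187608756-187609005 for Esrrg.
Esr1 start 1: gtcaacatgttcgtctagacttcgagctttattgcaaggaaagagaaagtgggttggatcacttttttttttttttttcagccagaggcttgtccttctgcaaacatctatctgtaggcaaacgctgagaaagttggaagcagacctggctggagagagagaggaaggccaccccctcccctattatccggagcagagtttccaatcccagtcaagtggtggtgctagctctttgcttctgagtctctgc
Esr1 start 2: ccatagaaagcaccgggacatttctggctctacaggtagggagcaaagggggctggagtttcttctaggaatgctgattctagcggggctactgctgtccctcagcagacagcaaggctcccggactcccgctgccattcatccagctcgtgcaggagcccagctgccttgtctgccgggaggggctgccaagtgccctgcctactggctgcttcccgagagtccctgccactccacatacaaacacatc
Rxrg start 1: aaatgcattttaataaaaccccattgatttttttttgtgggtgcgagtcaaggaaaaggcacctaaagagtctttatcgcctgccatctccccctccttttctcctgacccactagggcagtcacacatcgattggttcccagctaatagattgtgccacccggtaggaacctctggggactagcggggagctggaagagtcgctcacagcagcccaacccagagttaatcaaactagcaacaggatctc
Rxrg start 2: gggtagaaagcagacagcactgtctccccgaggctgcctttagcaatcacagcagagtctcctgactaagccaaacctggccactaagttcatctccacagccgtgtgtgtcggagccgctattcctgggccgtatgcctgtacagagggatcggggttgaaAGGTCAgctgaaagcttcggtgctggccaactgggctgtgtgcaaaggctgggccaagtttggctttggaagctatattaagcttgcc
Esrrg start 1: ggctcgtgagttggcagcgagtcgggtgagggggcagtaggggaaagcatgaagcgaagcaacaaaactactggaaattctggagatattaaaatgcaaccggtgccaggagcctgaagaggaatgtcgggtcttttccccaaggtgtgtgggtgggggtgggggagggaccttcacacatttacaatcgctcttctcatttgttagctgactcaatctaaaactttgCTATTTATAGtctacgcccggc

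Both strands were searched for 7 motifs, and the share of all 32851 RefSeq windows that hold each one is given with it. They were the cAMP response element TGACGTCA (1.55% of windows), its core TGACG (17.8%), the receptor half-site AGGTCA (14.02%), the estrogen response element GGTCANNNTGACC (0.0639%), 2 half-sites in direct repeat with 1 base between them, AGGTCANAGGTCA, as PPAR and RXR dimers bind (0.0335%), the estrogen-related receptor element TCAAGGTCA (0.387%) and the MEF2 consensus (0.508%). The cAMP element contains its core, and the longer receptor motifs contain all or most of the half-site. Neither Esr1 window holds any of the 7, and the 2 Esr1 starts lie 98169 bases apart. The second Rxrg window has AGGTCA from base -88, counted from the start, and the first, 19903 bases upstream, has no match. Esrrg has the MEF2 consensus from base -22 of its first start. Among the windows not shown, Esr2, Ppara and the first window of Esrrb hold TGACG, and windows of Pparg and Rxra hold AGGTCA. No window of the 10 genes holds the complete cAMP element or any of the 3 longer receptor motifs. These matches describe letters in short windows, and binding was not measured.

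Values are log2 expression after robust multi-array averaging (RMA), on a scale where the median gene of an array lies between 3.31 and 3.32 and the whole table between 2.25 and 13.8. Levels of different genes are not compared, because probe sets differ in brightness. The 13737 genes above the array median on at least 3 of the 12 arrays were tested with limma, a linear model with moderated variances, and a gene was called at a Benjamini-Hochberg adjusted p under 0.05 over all of them. All 10 receptor genes passed this filter. Rxra passed with exactly 3 arrays above the median, Esrrb with 6 and Esr2 with 7, while the other 7 genes were above it on all 12. The mice of a genotype were separate animals, so the spread includes the spread between animals and between the cultures made from them.

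The arrays as a whole were alike except for 1. Pairs of arrays correlated at a median of 0.984 to 0.988 across genes for 11 arrays and at 0.956 for untreated DKO array 3. On that array the 10 endothelial markers had a median deviation of 0.62 from their means over the arrays, against -0.28 to 0.17 on the other 11. The 11 ventricular myocyte markers were above the array median on all 12 arrays, so the labelled cell type was present throughout. Camk2g, one of the targeted genes, read 4.78 to 5.80 on the WT arrays and 3.57 to 4.20 on the DKO arrays. Camk2d, the other, read 7.94 to 8.42 on the WT arrays and 7.36 to 7.98 on the DKO arrays, a difference that was not called with Iso or without it. A probe set outside the deleted part of a gene does not check the deletion, and the labels do not name the deleted parts.

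Esr1 was higher in WT myocytes after Iso and not in DKO myocytes. In untreated WT myocytes it read 4.79, 4.76 and 5.17 in mice 1, 2 and 3. In the Iso-treated myocytes of the same mice it read 7.95, 6.64 and 8.30, so all 3 Iso arrays lay above all 3 untreated ones. Untreated DKO myocytes read 5.29, 5.36 and 6.41. DKO myocytes with Iso read 5.14, 4.75 and 5.25, all below the 3 untreated DKO arrays. The 3 WT Iso arrays are the highest of the 12, and untreated DKO array 3 is the next.

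The group means of Esr1 were 4.91 ± 0.229 in untreated WT, 7.63 ± 0.873 in WT with Iso, 5.69 ± 0.624 in untreated DKO and 5.04 ± 0.262 in DKO with Iso (SD, n = 3 mice each). The order from low to high was thus untreated WT, DKO with Iso, untreated DKO and WT with Iso. Untreated WT and DKO with Iso, neighbours in that order, overlapped in their single values. The difference made by Iso in WT was 2.72 log2 units (SE 0.38), a 6.59-fold higher level, and only 1 of the 13737 genes had a larger one in either direction. Within animals it was 3.16, 1.88 and 3.12 in WT mice 1, 2 and 3. In DKO mice the same difference was -0.16, -0.62 and -1.16, with a mean of -0.64 (SE 0.38). The Iso difference in DKO minus that in WT was -3.37 (SE 0.54), again with 1 gene beyond it in size. Iso differences of opposite sign in the mice of the genotypes, without exception, were found in 4.77% of all genes tested. Between genotypes, Esr1 was 0.78 higher in DKO than in WT without Iso and 2.59 lower (6.01-fold) in DKO than in WT with Iso. These differences are the ones for which the gene was chosen, and they describe the 12 arrays.

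Untreated DKO array 3, the array that stood apart, carried much of the untreated DKO level. Without it the untreated DKO mean of Esr1 was 5.33, the Iso difference in DKO was -0.28, and the difference of untreated DKO from untreated WT was 0.42. The Iso difference in DKO minus that in WT was then -3.01. With each of the 12 arrays left out in turn, the Iso difference in WT ranged from 2.39 to 3.22.

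**Figure D1:**
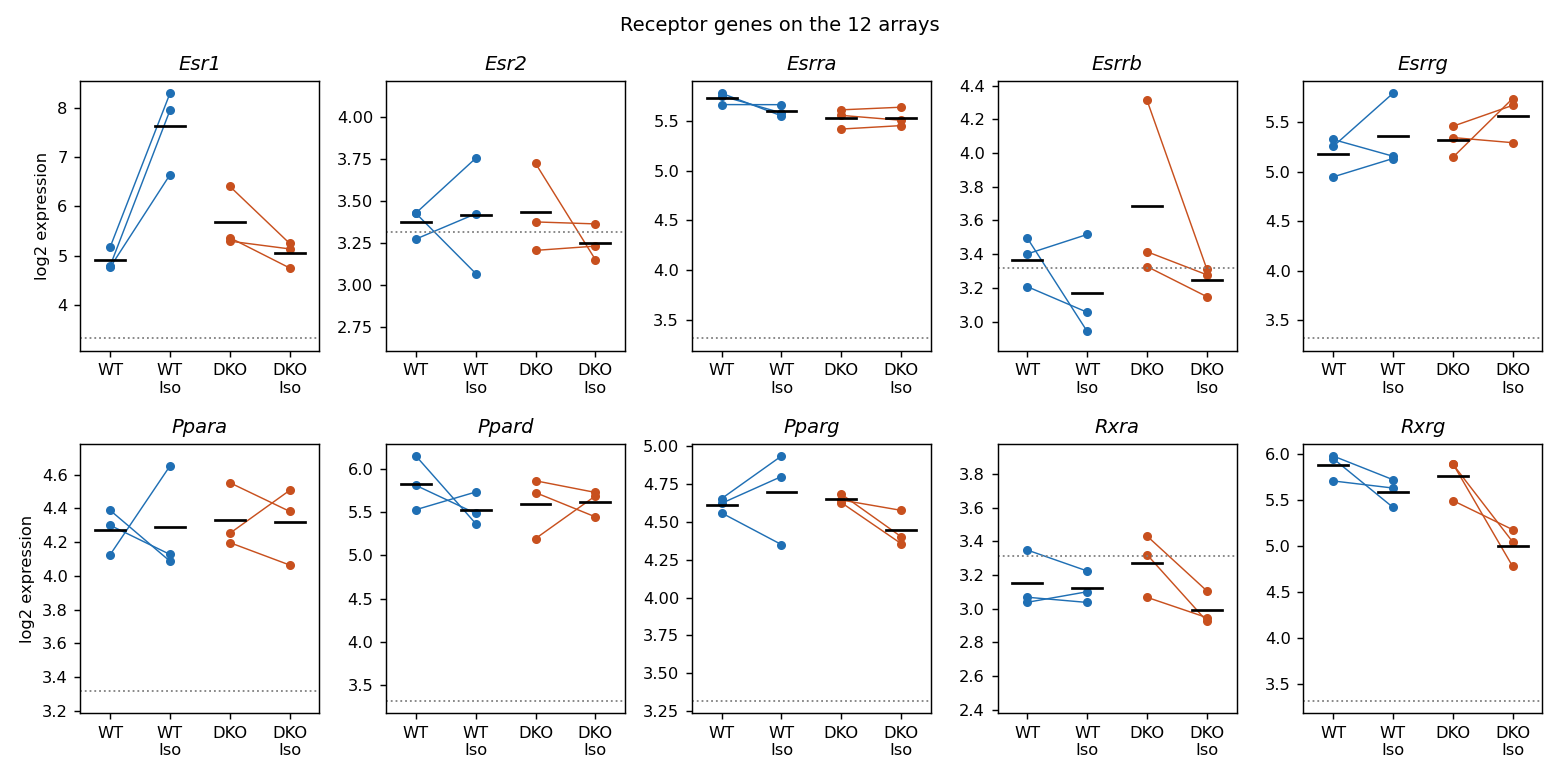
Log2 expression (RMA, vertical axis, own range per panel) of the 10 receptor genes on the 12 arrays. Points are arrays, thin lines join the untreated and Iso array of a mouse (blue WT, orange DKO), black bars are means of 3 mice, and the dotted line is the array median where it is in range. Esr1 goes up in the 3 WT mice, to between 6.64 and 8.30, and down in the 3 DKO mice, and Rxrg goes down in all 6.

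Myocyte preparations contain other heart cells, and in bulk RNA fewer cells of a type cannot be told apart from less RNA per cell. Endothelial markers deviated by 0.17, 0.07 and -0.15 on WT Iso arrays 1, 2 and 3, and by -0.20, -0.28 and -0.02 on the untreated WT arrays. All 10 endothelial markers had a positive Iso difference in WT, with a median of 0.23, and 9 of 10 a negative one in DKO, with a median of -0.25. None of these was called, and all 10 markers were above the array median on every array. The 4 atrial markers deviated by 1.36, 1.42 and -0.48 on WT Iso arrays 1, 2 and 3. On untreated WT arrays 1, 2 and 3 they deviated by -0.05, 0.94 and -0.84, so they also varied widely between untreated WT mice. Their median Iso difference was 1.03 in WT, with 3 of 4 above 0, and -0.36 in DKO, with 1 of 4 above 0. The median of the Iso difference in DKO minus that in WT was -1.09, of the same sign as in Esr1. No atrial marker was called for Iso in WT, Iso in DKO or the difference between them. In DKO against WT, 1 of 4 was called lower with Iso, without Iso and over both treatments. The shares of all genes called were 0.306%, 0.204% and 0.546%. Mesothelial and epithelial markers, of which 6 of 8 were tested, deviated by 0.06, 0.12 and 0.29 on the WT Iso arrays and by -0.21 to 0.07 on the other 9. Their Iso difference was above 0 for 6 of 6 in WT, with a median of 0.31, and for 2 of 6 in DKO, with a median of -0.17. The difference between the genotypes was below 0 for 6 of 6, with a median of -0.49. Of the adipocyte markers 2 of 6 were tested, and neither of the 2 Schwann cell markers with a probe set was above the median often enough to be tested. The 7 macrophage markers tested had a median Iso difference of -0.07 in WT, with 2 of 7 above 0. In DKO it was -0.49, with 7 of 7 below 0. The median of the Iso difference in DKO minus that in WT was -0.69 for these markers, with 6 of 7 below 0. With Iso, 2 of the 7 were called lower in DKO than in WT, against 0.306% of all genes called. The 7 fibroblast markers tested had median Iso differences of -0.03 in WT and 0.09 in DKO. For the 7 smooth muscle and pericyte markers these were -0.07 and -0.002. The median of the Iso difference in DKO minus that in WT was 0.11 for fibroblast markers, with 4 of 7 above 0. It was -0.003 for smooth muscle and pericyte markers (3 of 7 above 0) and 0.01 for ventricular myocyte markers (6 of 11). What part, if any, other cells had in the Esr1 values was not tested.

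Esr2, the second estrogen receptor, was near the array median throughout, at 3.07 to 3.75 over the 12 arrays. It read 3.43, 3.27 and 3.43 in untreated WT mice 1, 2 and 3 and 3.07, 3.42 and 3.75 in the same mice with Iso. The DKO values were 3.72, 3.38 and 3.21 untreated and 3.15, 3.36 and 3.23 with Iso. The groups overlapped in both genotypes. The Iso difference was 0.04 (SE 0.18, adjusted p = 0.993, limma) in WT and -0.19 (SE 0.18, adjusted p = 0.615) in DKO. The 95% intervals were -0.34 to 0.42 in WT and -0.57 to 0.20 in DKO.

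Esrra, the estrogen-related receptor most tied to mitochondrial biogenesis, had the narrowest range of the 10 genes, 5.42 to 5.78. In untreated WT it read 5.75, 5.78 and 5.66, and with Iso 5.58, 5.55 and 5.66. The untreated arrays were all above the Iso arrays, although the closest pair both read 5.66. In DKO it read 5.42, 5.55 and 5.61 untreated and 5.45, 5.50 and 5.64 with Iso, with full overlap. The Iso difference was -0.13 (SE 0.11, adjusted p = 0.926) in WT and 0.00 (95% interval -0.24 to 0.24) in DKO. Without Iso, Esrra was 0.20 lower in DKO than in WT, with no overlap between the groups, but the difference was not called (adjusted p = 0.429).

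Esrrg, the estrogen-related receptor that is high in working muscle, ranged from 4.95 to 5.79. It read 4.95, 5.26 and 5.33 in untreated WT and 5.13, 5.79 and 5.16 with Iso, and 5.46, 5.14 and 5.35 in untreated DKO and 5.67, 5.74 and 5.29 with Iso. The differences between the treatments were within the spread of the mice in both genotypes, at 0.18 (SE 0.19, adjusted p = 0.951) in WT and 0.25 (adjusted p = 0.514) in DKO. In mouse 2 of each genotype the Iso array was higher by 0.54 (WT) and 0.59 (DKO), and in mouse 3 of each it was lower.

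Esrrb, best known from embryonic stem cells, was near the array median on most arrays. It read 3.49, 3.21 and 3.40 in untreated WT and 2.94, 3.06 and 3.52 with Iso. Untreated DKO array 1 stood out at 4.31, beside 3.33 and 3.41 on the other 2, and DKO with Iso read 3.31, 3.15 and 3.28. The Iso difference in DKO was -0.44 (SE 0.23, adjusted p = 0.330) and without untreated DKO array 1 it was -0.12. The 3 untreated DKO arrays lay above the 3 Iso arrays, with the closest pair at 3.33 and 3.31.

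Ppara, the fatty acid receptor of oxidative tissues, showed no Iso difference beyond the spread. It read 4.39, 4.30 and 4.13 in untreated WT and 4.09, 4.13 and 4.65 with Iso. DKO myocytes gave 4.25, 4.20 and 4.55 untreated and 4.51, 4.06 and 4.38 with Iso. The Iso difference was 0.02 (95% interval -0.37 to 0.40, adjusted p = 0.997) in WT and -0.02 (-0.40 to 0.37, adjusted p = 0.973) in DKO.

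Ppard, the more widely expressed PPAR, read 5.81, 6.15 and 5.53 in untreated WT and 5.48, 5.37 and 5.73 with Iso. In DKO it read 5.86, 5.19 and 5.72 untreated and 5.73, 5.69 and 5.44 with Iso. All 4 groups overlapped. The Iso difference was -0.30 (SE 0.20, adjusted p = 0.867) in WT and 0.03 (adjusted p = 0.961) in DKO. Ppard was lower with Iso in 2 of 3 WT mice and in 2 of 3 DKO mice.

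Pparg, the PPAR of adipocytes, had the tightest untreated groups. It read 4.66, 4.62 and 4.56 in untreated WT and 4.63, 4.68 and 4.65 in untreated DKO. With Iso it read 4.94, 4.80 and 4.35 in WT and 4.36, 4.40 and 4.58 in DKO. In DKO the Iso arrays were all below the untreated ones, and in WT 2 were above and 1 below. The Iso difference was -0.21 (SE 0.14, adjusted p = 0.471) in DKO and 0.08 (adjusted p = 0.978) in WT, and the difference between the genotypes, -0.29, was not called (adjusted p = 0.621).

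Rxra, the widely expressed retinoid X receptor, was at or below the array median on 9 arrays by these probes and ranged from 2.93 to 3.43. It read 3.04, 3.07 and 3.35 in untreated WT and 3.10, 3.04 and 3.22 with Iso, and in DKO 3.07, 3.32 and 3.43 untreated and 2.95, 2.93 and 3.11 with Iso. In the 3 DKO mice the Iso array was the lower by 0.12, 0.39 and 0.33, but the groups overlapped. The Iso difference in DKO was -0.28 (SE 0.13, adjusted p = 0.289) and in WT -0.03 (adjusted p = 0.993).

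Rxrg, the retinoid X receptor largely restricted to muscle and brain, had the largest Iso difference of the 9 genes listed by family. In untreated WT it read 5.95, 5.71 and 5.98 in mice 1, 2 and 3, and with Iso 5.42, 5.63 and 5.72. The highest WT Iso array was just above the lowest untreated one. In untreated DKO it read 5.89, 5.90 and 5.50, and with Iso 5.05, 4.78 and 5.18, so the DKO groups did not overlap. The DKO Iso arrays are the lowest 3 of the 12. Means were 5.88 ± 0.149 in untreated WT, 5.59 ± 0.154 in WT with Iso, 5.76 ± 0.231 in untreated DKO and 5.00 ± 0.203 in DKO with Iso (SD, n = 3 each).

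The Iso difference of Rxrg was -0.76 (SE 0.16), a 1.69-fold lower level, in DKO and did not pass the threshold (adjusted p = 0.0647). In WT it was -0.29 (SE 0.16, adjusted p = 0.800). Rxrg was lower with Iso in 6 of 6 mice, by 0.08 to 0.53 in WT and by 0.32 to 1.12 in DKO. Of all genes tested, 3.58% were lower with Iso in all 6. Over both genotypes the Iso difference was -0.52 (SE 0.11, adjusted p = 0.0802). The Iso difference in DKO minus that in WT was -0.47 (SE 0.22, adjusted p = 0.493), so a difference in response between the genotypes was not shown. With Iso, Rxrg was 0.59 lower in DKO than in WT, without overlap (adjusted p = 0.211).

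The Rxrg result depended on the untreated DKO arrays. Without untreated DKO array 3 the Iso difference in DKO was -0.89 (adjusted p = 0.0316) and that over both genotypes -0.59 (adjusted p = 0.0261), both past the threshold. Without untreated DKO array 2 the Iso difference in DKO was -0.69 (adjusted p = 0.0478). The fit without array 3 called 31 of 13737 genes for Iso in DKO and 102 for Iso over both genotypes. The fit without array 2 called 605 for Iso in DKO. With all 12 arrays these counts were 7 for Iso in DKO and 17 over both genotypes. Rxrg was thus called in fits that called more genes of the whole table. Over all settings tried, the adjusted p for Rxrg in DKO ranged from 0.0316 to 0.286.

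**Figure D2:**
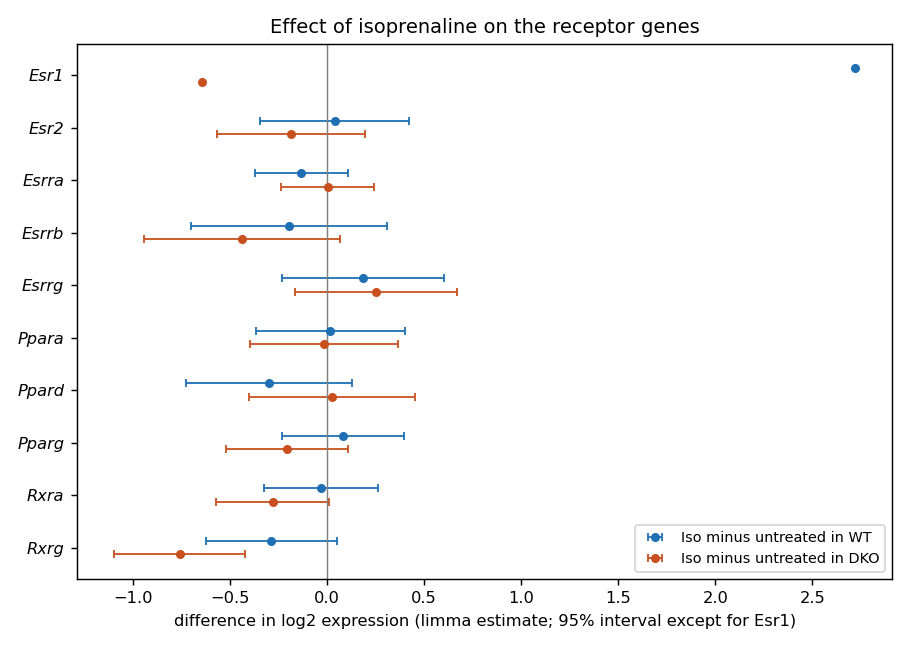
Iso minus untreated difference in log2 expression (horizontal axis) of each receptor gene in WT (blue) and DKO (orange), as limma estimates from 3 mice per group, with 95% intervals for the 9 genes other than Esr1. Esr1 in WT lies at 2.72, apart from all the other points, and Rxrg in DKO at -0.76 has the only interval drawn that leaves out 0.

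None of the 9 genes other than Esr1 was called in any of the 7 comparisons made. The background was low: Iso in WT gave 3 called genes of 13737 (0.0218%), Iso in DKO 7 (0.0510%), the difference between these Iso effects 2 (0.0146%), DKO against WT without Iso 28 (0.204%) and with Iso 42 (0.306%), Iso over both genotypes 17 (0.124%), and DKO over both treatments 75 (0.546%). With the mouse as a block, Iso in WT gave 5 (random replicate block) and the difference between the Iso effects 5 (fixed replicate block), none of them among the 9. Esr1 went through the same fit, so these counts are not free of it, although no test of it is reported. A count of 0 of 9 is near that background and is no result about the 9 genes. At an unadjusted p under 0.05, there were 0 of 9 with Iso in WT, where all genes gave 6.7%. Iso in DKO gave 1 of 9 (all genes 18.4%) and the test of the difference 0 of 9 (all genes 10.1%). DKO against WT gave 0 of 9 without Iso (all genes 13.8%) and 1 of 9 with it (all genes 7.91%). Iso over both genotypes gave 1 of 9 (all genes 14.4%) and DKO over both treatments 1 of 9 (all genes 10.7%). The gene was Rxrg each time.

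The median Iso difference of the 9 was -0.03 in WT, where 5 were below 0, and -0.19 in DKO, where 6 were below 0. Over all genes tested these medians were -0.01 and 0.01. Groups did not overlap for 1 of the 9 with Iso in WT (Esrra), where 15.6% of all genes did not, and for 3 of the 9 with Iso in DKO (Esrrb, Pparg and Rxrg), where 21.5% did not. Between genotypes, 1 of 9 did not overlap without Iso (Esrra; all genes 17.0%) and 1 of 9 with Iso (Rxrg; all genes 17.6%). The Iso comparisons in WT and DKO use different mice, but both share their arrays with the genotype comparisons.

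The genes most like Esr1 over the 12 arrays were not among its relatives. The 5 named genes with the highest Pearson r with Esr1 over the 12 arrays were Mir1932 (r = 0.93), Unc5cl (0.93), Mir5112 (0.92), Ighg2c (0.92) and Klhl18 (0.89). These r values describe 12 points that come from 6 mice in 4 groups. Mir1932 and Mir5112 are annotated as miRNA genes, and whether their probe sets measure the miRNA, its precursor or another transcript of the locus is not known here. Ighg2c is an immunoglobulin heavy chain constant region, Unc5cl encodes a death domain protein and Klhl18 a Kelch protein that serves as an adaptor for a ubiquitin ligase.

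Of the 5, Mir5112 had a larger Iso difference in WT than Esr1, and Mir1932 a smaller one. Mir5112 had group means of 6.00 in untreated WT, 10.3 in WT with Iso, 7.50 in untreated DKO and 7.28 in DKO with Iso, with an Iso difference of 4.30 in WT. Mir1932 had means of 3.76, 6.30, 4.10 and 3.82 in the same order, with an Iso difference of 2.55 in WT. Ighg2c differed by 0.98, Klhl18 by 0.47 and Unc5cl by 0.37. Unc5cl spanned only 3.17 to 3.74 and was above the array median on 6 arrays. Since these genes were picked for their likeness to Esr1, their WT Iso differences follow from the choice.

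The other receptors had r values with Esr1 between -0.24 (Ppard) and 0.27 (Rxra) over the same arrays. Esrra was most like Smim19 (r = 0.92), Sra1 (0.90), whose RNA and protein are known as steroid receptor coactivators, and Rpl39l (0.87). Esrrg was most like Fam133b (0.89), Zfp9 (0.87) and Clasp1 (0.85), a microtubule-binding protein. Ppara was most like the kinesin Kif5c (0.92), the membrane-bound protease Mbtps1 (0.89), which activates the SREBP factors, and Rsph9 (0.89). Kif5c spanned only 2.91 to 3.48 and was above the array median on 5 arrays. Rxra was most like the syntaxin Stx6 (0.98), the lipoprotein Apoe (0.94) and the bile acid and steroid transporter subunit Slc51a (0.90). Rxra itself spanned only 2.93 to 3.43 and was above the array median on 3 arrays. Esrra and Esrrg ran in opposite directions over the 12 arrays (r = -0.65), and Esrrg and Rxrg likewise (r = -0.56), while Rxra and Rxrg had r = 0.50. The highest values were picked from 13737 genes over 12 arrays and are a ranking only.

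**Figure D3:**
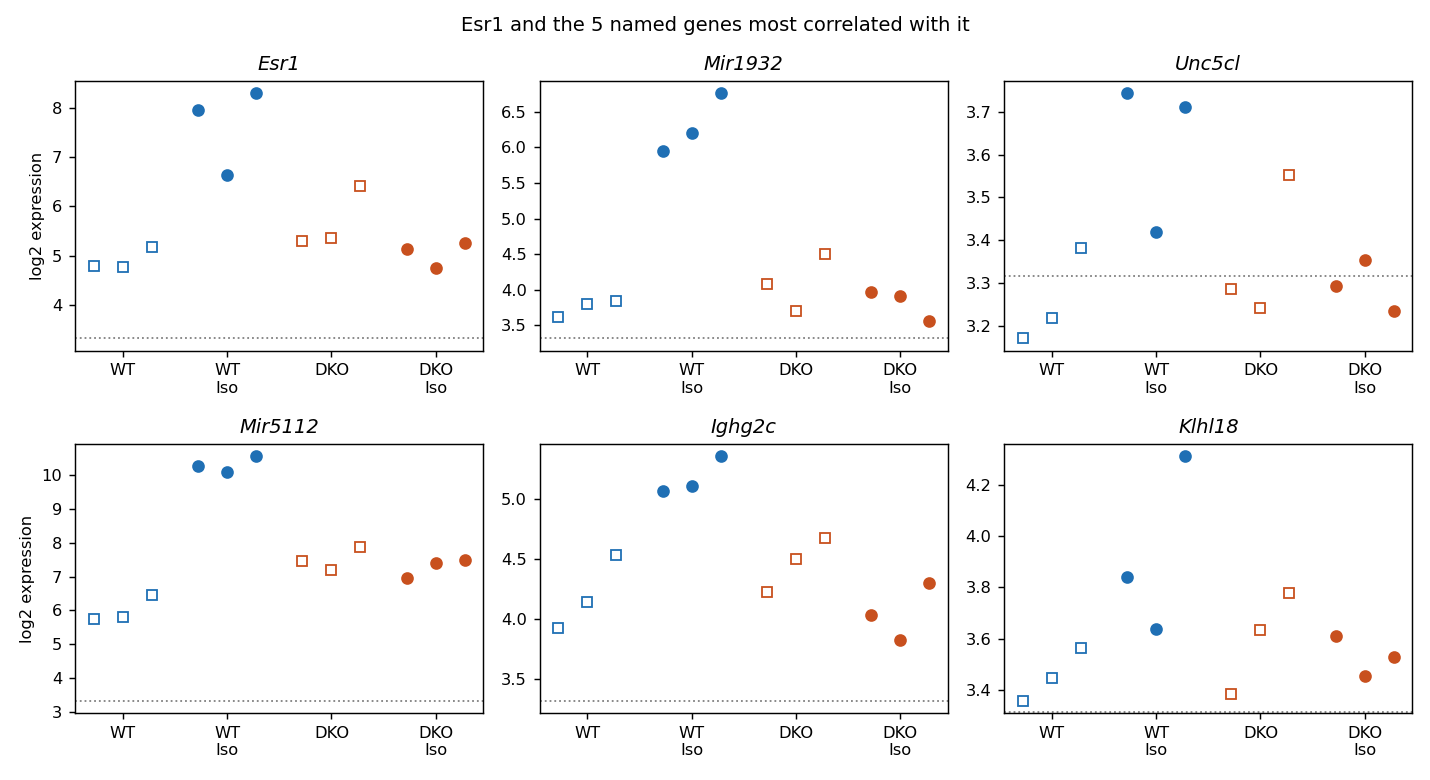
Log2 expression (vertical axis, own range per panel) of Esr1 and the 5 named genes most correlated with it on the 12 arrays. Open squares are untreated and filled circles Iso arrays (blue WT, orange DKO), in the order of mice 1 to 3 within a group, and the dotted line is the array median. In Mir1932, Mir5112 and Ighg2c the 3 WT Iso arrays are above the other 9, as in Esr1, whereas in Unc5cl and Klhl18 they are not.

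Of the genes beside Esr1 on its chromosome, only Syne1 was tested. Syne1, the next gene in RefSeq order, which encodes the nuclear envelope protein nesprin-1, read 3.59 to 4.11 over the 12 arrays. Its Iso difference was 0.17 (SE 0.11, adjusted p = 0.849) in WT and 0.21 (adjusted p = 0.324) in DKO. Ccdc170, 3 places to the other side, was too dim to be tested, and the 4 other genes within 3 places were not analysed here.

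Genes that work with these receptors or lie under their control were followed in 8 lists of 133 genes, of which 117 have a probe set and 100 were tested. Neither Iso comparison called any of the 100, and nor did the test of the difference between the genotypes. At an unadjusted p under 0.05 there were 13 of 100 with Iso in WT, where all genes gave 6.70%, and 24 of 100 with Iso in DKO, where all genes gave 18.4%. For the difference there were 16 of 100, where all genes gave 10.1%. The only calls were for DKO against WT over both treatments, where 2 of 100 passed, Cited2 and Nr1d1, against 0.546% of all genes. Both were lower in DKO.

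Which list genes passed varied with the arrays left out. Without untreated DKO array 2, 605 of the 13737 genes tested were called for Iso in DKO in place of 7. Among them were 9 of the 100 list genes: Cxcl12, Dhrs3, Igfbp4, Nr1h3, Nrip1, Ppargc1a, Ppargc1b, Rora and Vegfa. Without untreated DKO array 3, 102 of the 13737 were called for Iso over both genotypes in place of 17. Among these were 5 of the 100 list genes: Crebbp, Nr1h3, Pdk4, Ppargc1b and Vegfa. With all 12 arrays these genes are described by their values.

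Among the estrogen receptor targets, 16 of 19 genes were tested. Their median Iso difference was 0.08 in WT, with 13 of 16 above 0, and -0.23 in DKO, with 5 of 16 above 0. The medians of all genes were -0.01 and 0.01. The median of the Iso difference in DKO minus that in WT was -0.29, with 4 of 16 above 0, beside 0.01 over all genes. In DKO, 5 of 16 were above 0 with a median of -0.17 when untreated DKO array 3 was left out. The endothelial markers had medians of the same signs, 0.23 in WT and -0.25 in DKO, or -0.08 in DKO without that array. The 7 macrophage markers tested were all below 0 with Iso in DKO, with a median of -0.49. The part of either cell type in the estrogen receptor targets was not tested. Pgr, the progesterone receptor, and Greb1, the textbook targets of estrogen receptor α, were too dim to be tested, with unfiltered Iso differences in WT of -0.09 and 0.00.

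Igfbp4, an insulin-like growth factor binding protein, read 5.58, 5.37 and 5.51 in untreated WT and 5.86, 6.11 and 5.88 with Iso. In DKO it read 6.43, 5.86 and 6.32 untreated and 5.81, 5.52 and 5.45 with Iso. The Iso arrays were above the untreated ones in WT and below them in DKO, without overlap in either. The Iso difference was 0.46 (SE 0.16, adjusted p = 0.603) in WT and -0.61 (SE 0.16, adjusted p = 0.0969) in DKO, and the difference between them, -1.07 (SE 0.23), was not called (adjusted p = 0.236). Without untreated DKO array 2 that last difference was -1.25 and was past the threshold (adjusted p = 0.0447). That fit called 16 of all 13737 genes for the difference, in place of 2 with all arrays. The other estrogen receptor targets with the smallest p values in DKO were the chemokine Cxcl12 at -0.54 (adjusted p = 0.109) and the lysosomal protease Ctsd at -0.40 (adjusted p = 0.131). In WT they were Rara at 0.34 (adjusted p = 0.742) and the caveolae protein Cav1 at 0.27. Cav1 is also abundant in endothelial cells, whose markers had Iso differences of the same sign in WT.

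Cited2, a transcriptional coregulator induced by estrogen and by hypoxia, read 8.84, 8.97 and 8.98 in untreated WT and 9.13, 9.11 and 8.76 with Iso. The DKO arrays gave 8.28, 8.08 and 8.96 untreated and 7.88, 8.12 and 7.92 with Iso. Over both treatments it was 0.76 lower in DKO (SE 0.14, 1.69-fold, adjusted p = 0.0333, limma), counting both arrays of a mouse as separate values. Over the alternatives its adjusted p reached 0.113, and it was called in 6 of 16. It lost the call when untreated DKO array 1, WT Iso array 1 or 2, any DKO Iso array or any untreated WT array was left out, and in the fit with no filter (adjusted p = 0.0501). Of its 6 DKO arrays, untreated array 3 alone reached the WT range.

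Estrogen supply in the cell could be followed through 3 tested genes of 9. The membrane estrogen receptor Gper1 and the 17β-hydroxysteroid dehydrogenases Hsd17b1 and Hsd17b7 had Iso differences between -0.10 and -0.01 in WT and between -0.06 and 0.17 in DKO. The aromatase gene Cyp19a1 was not analysed here.

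Coregulators of the receptors had a median Iso difference of 0.01 in WT, with 7 of 13 above 0, and of 0.25 in DKO, with 10 of 13 above 0. Ppargc1b (PGC-1β), a coactivator of the estrogen-related receptors, read 6.70, 6.45 and 6.39 in untreated WT and 6.65, 7.16 and 7.13 with Iso. In DKO it read 6.07, 6.51 and 6.70 untreated and 7.21, 7.32 and 7.10 with Iso, without overlap. Its Iso difference was 0.47 (adjusted p = 0.658) in WT and 0.78 (SE 0.18, adjusted p = 0.0766) in DKO, and 0.63 over both genotypes (adjusted p = 0.0728). It was past the threshold in DKO without untreated DKO array 2 (adjusted p = 0.0479), a fit that called 605 genes in place of 7. Ppargc1a (PGC-1α), the better known relative, had Iso differences of -0.17 in WT and 0.40 in DKO (adjusted p = 0.263).

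Nrip1 (RIP140), a corepressor of estrogen and estrogen-related receptors, had an Iso difference of 0.56 in DKO (adjusted p = 0.0727) and 0.12 in WT. Its untreated DKO arrays, at 4.41 to 4.73, were the lowest 3 of the 12. Med1, the Mediator subunit that contacts nuclear receptors, had an Iso difference of 0.42 in DKO. In WT the other coregulators with the smallest p values were Nr0b2 (SHP), a receptor-like repressor without a DNA-binding domain, at -0.35 and Pprc1 at 0.27.

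Targets of the estrogen-related receptors had a median Iso difference of 0.06 in WT, with 13 of 19 above 0, and of 0.21 in DKO, with 14 of 19 above 0. The median in DKO was 0.11, with 12 of 19 above 0, when untreated DKO array 3 was left out. Vegfa, the angiogenic growth factor, had the smallest p in DKO, with an Iso difference of 0.77 (adjusted p = 0.0607) beside 0.22 in WT. It read 9.42, 9.53 and 9.56 in untreated DKO and 10.31, 10.36 and 10.15 with Iso. The respiratory chain subunit Uqcrc1 was at -0.41 in DKO and the mitochondrial creatine kinase Ckmt2 at 0.14 in WT.

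PPAR targets had a median Iso difference of 0.14 in WT, with 21 of 25 above 0, and of 0.10 in DKO, with 15 of 25 above 0. Of all genes tested, 47.8% were above 0 in WT and 50.9% in DKO. Some marker lists of cell types had mostly positive differences in WT too. Above 0 were 11 of 11 ventricular myocyte markers (median 0.08), 10 of 10 endothelial (median 0.23) and 2 of 2 adipocyte (median 0.13). So were 6 of 6 mesothelial and epithelial (median 0.31) and 3 of 4 atrial (median 1.03). Other lists were mostly below 0, with 3 of 7 fibroblast (median -0.03), 1 of 7 smooth muscle and pericyte (-0.07) and 2 of 7 macrophage markers (-0.07) above it. The adipocyte marker Fabp4 is itself in the list of PPAR targets. The part of these cell types in the PPAR target values was not tested. Leaving out untreated DKO array 3 gave the PPAR targets a DKO median of 0.02, with 13 of 25 above 0. Pdk4, the pyruvate dehydrogenase kinase that shifts fuel use from glucose to fatty acids, is a target of both PPARs and estrogen-related receptors. It read 11.20, 11.25 and 11.38 in untreated WT and 11.61, 11.69 and 11.75 with Iso, and in DKO 10.97, 11.08 and 10.89 untreated and 11.44, 11.54 and 11.30 with Iso. The groups did not overlap in either genotype, and the Iso differences were 0.40 (SE 0.12, adjusted p = 0.460) in WT and 0.44 (SE 0.12, adjusted p = 0.0962) in DKO. The difference between the genotypes was 0.04, with a 95% interval from -0.31 to 0.40.

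Of the other PPAR targets, Cpt1a, the liver-type gate of fatty acid entry into mitochondria, had an Iso difference of 0.50 in WT (adjusted p = 0.460). Hadhb, a subunit of the trifunctional protein of fatty acid oxidation, had one of 0.77 in WT (SE 0.26, adjusted p = 0.603), with WT Iso arrays spread from 8.21 to 9.39. In DKO, the malonyl-CoA decarboxylase Mlycd was at -0.73 (adjusted p = 0.0819) and the lipoprotein lipase Lpl at 0.44.

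**Figure D4:**
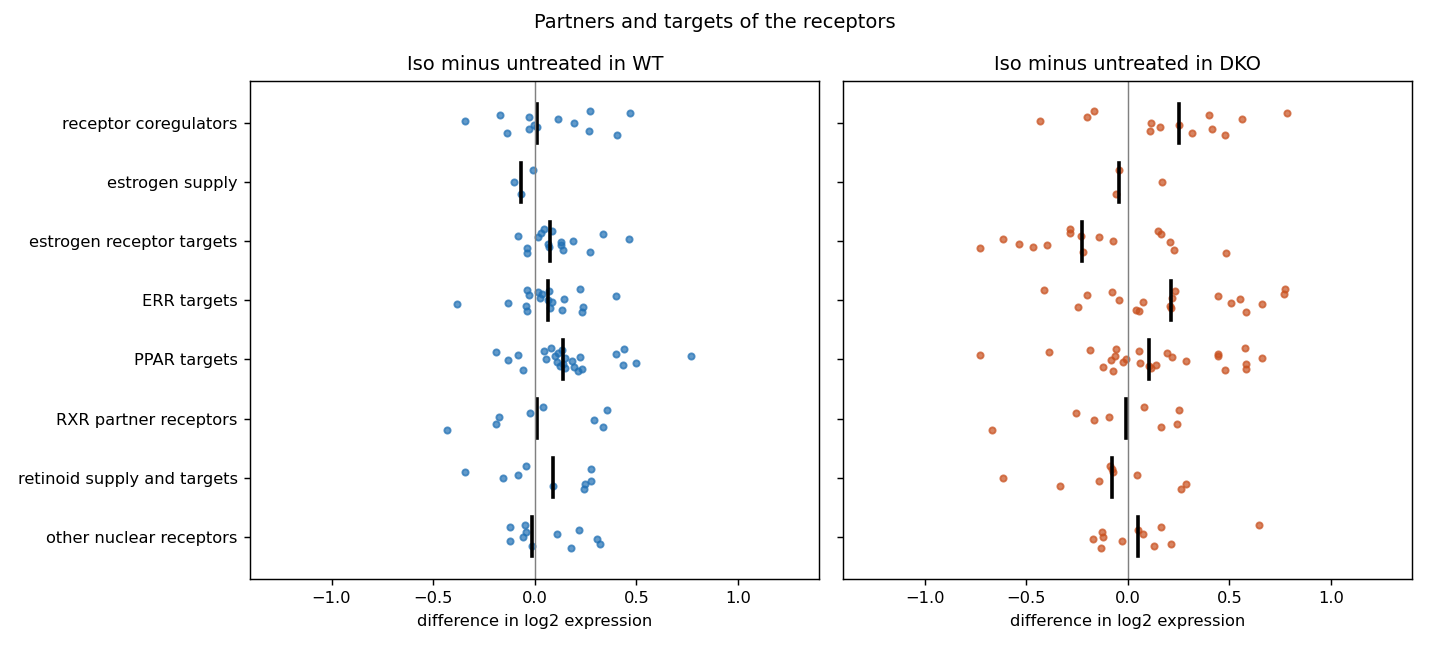
Iso minus untreated difference in log2 expression (horizontal axis) of the tested genes of 8 lists around the receptors, in WT (left) and DKO (right). Each point is a gene, black bars are list medians, and vertical scatter only separates points. The estrogen receptor targets have a median of 0.08 in WT and -0.23 in DKO, and the coregulators 0.01 and 0.25.

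Partners of the RXRs had median Iso differences of 0.01 in WT and -0.01 in DKO over 8 tested genes. Nr1h3 (LXRα), a sterol receptor, was lower with Iso by 0.43 (adjusted p = 0.587) in WT and by 0.67 (SE 0.14, adjusted p = 0.0692) in DKO, where it read 4.53, 4.63 and 4.59 untreated and 3.78, 3.97 and 3.99 with Iso. The thyroid hormone receptor Thrb had differences of 0.36 in WT and 0.25 in DKO, the retinoic acid receptor Rara one of 0.34 in WT, and its relative Rarb one of 0.24 in DKO. Rxrb, the RXR outside the 10 genes, had Iso differences of -0.17 in WT and -0.09 in DKO.

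Genes of retinoid supply and response had a median Iso difference of 0.09 in WT, with 5 of 9 above 0, and of -0.08 in DKO, with 3 of 9 above 0. Dhrs3, which reduces retinaldehyde and is itself induced by retinoic acid, had the smallest p in DKO, at -0.61 (adjusted p = 0.0738), with 8.99, 8.97 and 9.28 untreated and 8.61, 8.28 and 8.53 with Iso. Aldh1a2, which makes retinoic acid, was at -0.33 in DKO and 0.090 in WT. The retinol uptake receptor Stra6 and the retinoic acid hydroxylase Cyp26b1 were both at 0.28 in WT. Crabp2, which carries retinoic acid to its receptors, had differences of 0.24 in WT and 0.29 in DKO. The list's median in DKO turned to 0.02, with 5 of 9 above 0, without untreated DKO array 3.

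Other nuclear receptors had medians of -0.01 in WT and 0.05 in DKO over 11 tested genes. Nr1d1 (REV-ERBα), a haem-binding repressor of the circadian clock, read 8.60, 8.54 and 8.44 in untreated WT and 8.45, 8.96 and 8.12 with Iso. DKO values were 7.42, 7.62 and 8.05 untreated and 7.67, 7.86 and 7.94 with Iso. Each DKO array was thus below each WT array. Over both treatments it was 0.76 lower in DKO (SE 0.15, adjusted p = 0.0409, limma), counting both arrays of a mouse as separate values. Its adjusted p reached 0.127 over the alternatives, and it was called in 5 of 16. Among the fits with 1 array left out it kept the call only without untreated DKO array 3 (adjusted p = 0.00779) or WT Iso array 3 (adjusted p = 0.0152), and it also lost the call in the fit with no filter (adjusted p = 0.0633). The retinoid-related orphan receptor Rora, which acts on the same DNA elements as Nr1d1, had an Iso difference of 0.65 in DKO (adjusted p = 0.0615) and -0.05 in WT, and the difference between the genotypes, 0.69, was not called (adjusted p = 0.316). Nr1d2, Nr2c2 and the glucocorticoid receptor Nr3c1 had Iso differences of 0.32, 0.31 and 0.22 in WT.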

How the data were processed

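The table holds log2 values per probe set, deposited by the authors after RMA (robust multi-array averaging), per the submitters' processing notes, which name no version. It has 25428 probe sets on 12 arrays, of which 24705 have 1 symbol in GEO's platform annotation and 723 none. 1 probe set that repeated a symbol was left out, and 24673 matched the RefSeq gene table by Entrez ID. Genes above the array median on at least 3 arrays were kept (13737 kept, 10967 dim).

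4 group means were fitted over all 12 arrays with limma 3.58.1 in R 4.3.3 (lmFit and eBayes), with 7 comparisons and Benjamini-Hochberg adjustment over the kept genes at 0.05. The script was checked on simulated data. The precision rests on 3 arrays per group. The labels tie each Iso array to the untreated array of the same mouse. Deviations from the group means correlated within mice at 0.00733, 0.0864 and 0.13 (DKO) and -0.0623, 0.0566 and 0.0109 (WT), and the fits with the mouse as a block are alternatives.

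The receptor genes and the lists were chosen with earlier results of these data known. Named are all 10 receptor genes, list genes that passed or had the 3 smallest p values with Iso in WT or DKO, the 5 (Esr1) or 3 (Esrra, Esrrg, Ppara, Rxra) named genes most correlated with a receptor, the neighbours of Esr1, and Camk2d and Camk2g. Ppargc1a, Pgr, Greb1, Rxrb, Xist, Uty, Eif2s3y and Crebbp were added after their values were seen. Alternatives were no filter, quantile normalization, eBayes with trend and robust options, the mouse blocked randomly or as a fixed term, a fit restricted to the groups compared, and each array left out in turn.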

Additional observations from a re-analysis of the deposited data

Results flagged for a closer look

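Esr1 differed with Iso by 2.72 in WT and by -0.64 in DKO on the log2 scale, up in each WT mouse and down in each DKO mouse. No test of the difference is reported, because Esr1 was chosen for it. The same opposite pattern in every mouse, in either direction, was seen in 4.77% of the genes tested, and up in WT with down in DKO in 1.97%.

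Igfbp4 (0.46 in WT, -0.61 in DKO), Ighg2c (0.98 and -0.42) and the retinoic acid-making enzyme gene Aldh1a2 (0.090 and -0.33) also went up in every WT mouse and down in every DKO mouse. The limma test of the difference between the genotypes did not pass for any of the 3 (adjusted p = 0.236, 0.141 and 0.469). Ighg2c was picked for its likeness to Esr1.

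Mir5112 (4.30 in WT, -0.22 in DKO) and Mir1932 (2.55 and -0.28) passed the test of the difference between the genotypes, with adjusted p = 7.87e-05 and 0.00642. Both were picked for their likeness to Esr1, so these p values are not independent of the choice, and the DKO mice did not all go one way. Which transcript of these loci the probe sets measure is not known here.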

How the results depend on the processing

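The Iso difference of Esr1 kept its sign in both genotypes under each alternative and was between 2.39 and 3.22 in WT, between -0.84 and -0.28 in DKO, and between -3.86 and -3.01 for the difference between them when 1 array was left out. No test of Esr1 is reported. Of the 9 other receptors only Rxrg was called under any alternative, namely without untreated DKO array 2 or 3. With 1 array left out, the number of other receptors called was thus 0 to 1 for Iso in DKO and 0 to 1 for Iso over both genotypes.

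Counts of called genes moved more. Iso in WT gave 3, and 5 with eBayes trend and robust options, 5 with the mouse as a random replicate block, 6 from only the arrays compared and 2 to 8 with 1 array left out. Iso in DKO gave 7, and 17 with no filter, 0 from only the arrays compared (fewer samples) and 0 to 605 with 1 array left out. The difference between the Iso effects gave 2, and 5 with the mouse as a fixed replicate block and 2 to 16 with 1 array left out. DKO without Iso gave 28, and 18 with no filter, 2 from only the arrays compared and 7 to 180 with 1 array left out. DKO with Iso gave 42, and 77 from only the arrays compared and 10 to 163 with 1 array left out. Iso over both genotypes gave 17, and 10 with the trend and robust options and 2 to 102 with 1 array left out. DKO over both treatments gave 75, and 31 to 244 with 1 array left out. The cause of these shifts was not tested.

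The pairing of arrays by mouse changed no call of a receptor or a list gene named in the text. With 3 mice per group and probe sets of Esr2, Esrrb and Rxra near the array median, small differences in these genes were not detectable.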
